A study of Mus musculus with 7 samples.

Results

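Blood plasma carries proteins that act in a cascade to form and dissolve clots, and a related set, the complement system, that marks and lyses foreign cells. Described here are 42 genes that encode components of these systems, all read on 7 one-colour arrays of mouse cells. They were chosen by name from a list of factors and matched to probes through the accession that the array gives for each probe. All 42 were on the array and could be tested, among 18030 genes in all, and 38 of them were well above background on all 7 arrays. They were split by where the protein is mainly made: 28 by hepatocytes, the main cells of the liver, and 14 mainly or also by macrophages, stromal cells or endothelium.

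By their labels, the cells were dermal sheath cells, the mesenchymal layer around the hair follicle, from dorsal skin of mice at postnatal day 15. The sort kept YFP+ cells without CD34, without alkaline phosphatase (ALP) and without integrin α8 (ITGα8). Control RNA filled 3 arrays from 4 mice, with 2 mice pooled on array 3. RNA of the cΔex3 mice, in which β-catenin is activated by their labels, filled 4 arrays from 6 mice, with 2 mice pooled on array 2 and 2 on array 3. The labels call the arrays biological replicates. The Cre line, the reporter allele and the control genotype are not given in the sources used here, nor whether control mice carried Cre. Levels below are log2 of the processed signal minus the array's 75th percentile, so a level of 0 is that percentile and a step of 1 is a 2-fold change. A difference is cΔex3-labelled minus control-labelled.

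Most plasma clotting factors are secreted by hepatocytes as inactive precursors. Tissue factor on cells outside the blood starts the cascade, thrombin then cuts fibrinogen to fibrin, and factor XIII crosslinks the fibrin. Complement is started by the C1 complex, by mannose-binding lectins or spontaneously, all routes meet at C3, and a terminal complex forms pores. In skin, macrophages are a known source of C1q and of the A subunit of factor XIII, and fibroblasts of C3 and the C1 proteases.

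Transcripts of cells that the labels do not name were abundant. On the control-labelled arrays 12 of 12 hepatocyte markers were well above background, and albumin (Alb) stood at 9.75, 9.92 and 9.54. On the cΔex3-labelled arrays Alb stood at −0.76, 2.30, 1.79 and 2.44. Summed over the 12 hepatocyte markers, the level was 12.09 to 12.48 on the former and 7.39 to 8.44 on the latter. Trf (6.69 to 7.79) and Rbp4 (5.10 to 6.90) led the latter sum. The median of the 12 was 8.56 to 8.99 on the control-labelled and −1.14 to 1.44 on the cΔex3-labelled arrays. Markers of the dermal sheath, summed over 6 genes, were at 4.43 to 4.90 and 5.95 to 7.01, and markers of adipocytes, over 8 genes, at 3.43 to 6.04 and 9.09 to 10.34. Cd34, whose protein the sort excluded, was 4.84 higher on the cΔex3-labelled arrays (limma, adjusted p = 4.49e-05). The other sort genes did not pass, Alpl at −1.27 (adjusted p = 0.308) and Itga8 at −0.77 (adjusted p = 0.323), and Ctnnb1, which encodes β-catenin, differed by −0.02 (adjusted p = 0.902), with a probe whose exon is not known here. The 75th percentile of the signal was 756 to 907 on the control-labelled and 1348 to 2160 on the cΔex3-labelled arrays, and 0 spots were saturated. Whether any sample or file was exchanged before deposit was not tested. Groups are named by their labels, and none of the differences is taken for an effect of the allele. In RNA from many cells, fewer cells of a type and less RNA per cell cannot be told apart.

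Factors made mainly by hepatocytes were lower on the cΔex3-labelled arrays almost without exception. Of 28, 27 passed the threshold as lower and 0 as higher (limma, adjusted p under 0.05). The background was wide: 29.0% of all genes tested were called lower and 24.0% higher. No overlap between the groups' arrays was seen for 28 of 28, where 32.6% of all genes tested were lower without overlap. Falls were large, with a median of −8.76 beside −0.08 over all genes tested, and 22 of 28 were called at least 128-fold lower, as were 1.67% of all genes tested. The hepatocyte markers moved with these factors, all 12 lower with a median of −7.98. The part of hepatocyte RNA in these differences was not tested.

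**Figure D1:**
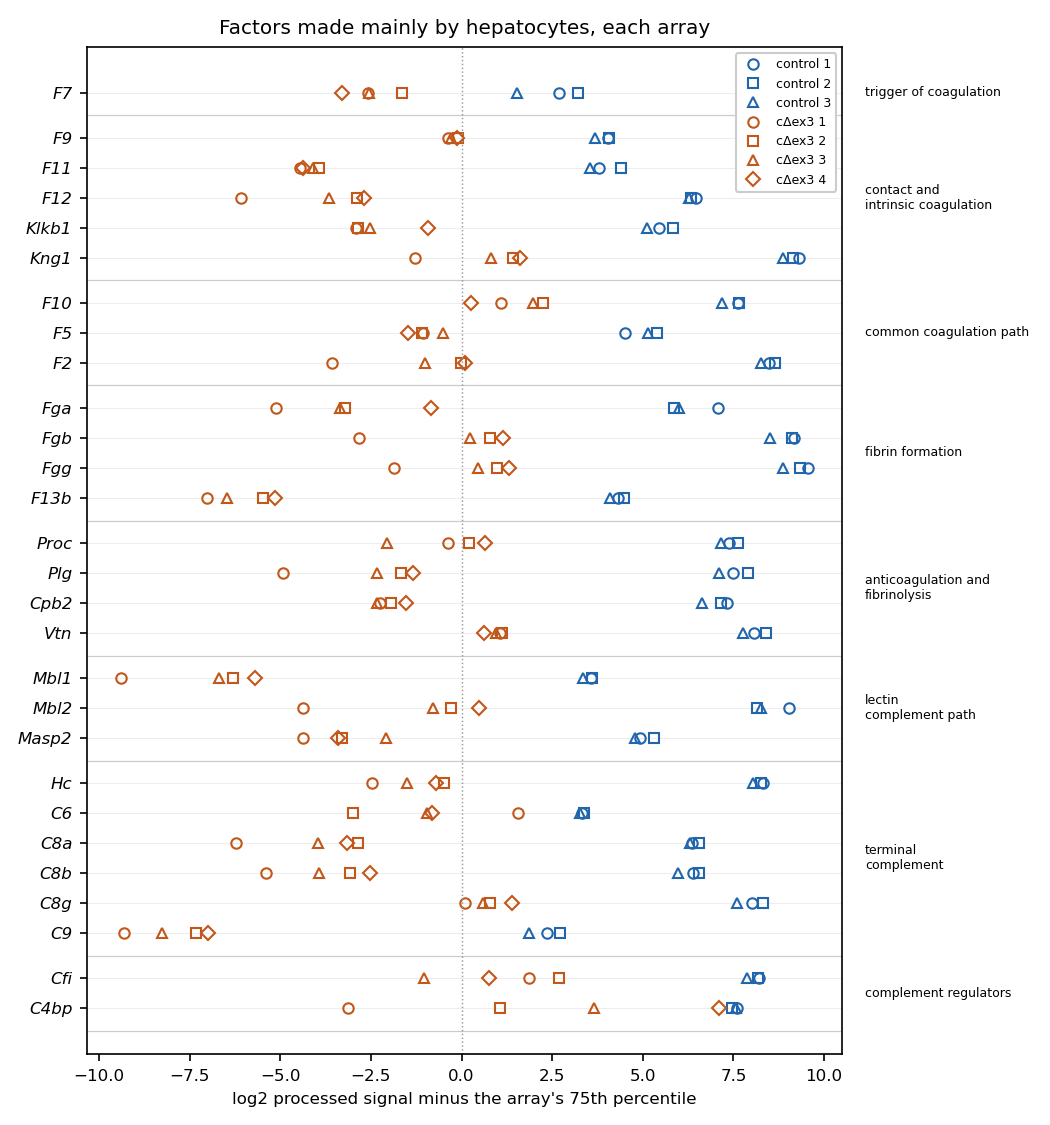
Level of each of the 28 hepatocyte-made factors on each array (horizontal axis, log2 processed signal minus the array's 75th percentile), with genes on the vertical axis grouped by role; blue symbols are the 3 control-labelled and orange symbols the 4 cΔex3-labelled arrays. The orange symbols lie left of the blue ones in every row, and C4bp shows the widest orange spread, from −3.14 to 7.11; C9 was above background on 0 of the 4 cΔex3-labelled arrays, Mbl1 on 1 and F13b on 3.

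Clotting starts when tissue factor meets factor VII. F7, the factor VII gene, stood at 2.68, 3.20 and 1.54 on the control-labelled arrays and at −2.57, −1.66, −2.56 and −3.31 on the cΔex3-labelled arrays. No array of one group reached the other, and F7 fell by 5.00 ± 0.50 (SE; limma, adjusted p = 0.00028). Its partner F3, which encodes tissue factor itself, is a membrane protein of stromal and epithelial cells, and went the other way. F3 stood at 1.05, 1.07 and 0.82 against 3.59, 4.13, 3.88 and 2.30. It was higher on 4 of 4 cΔex3-labelled arrays and rose by 2.50 ± 0.43 (SE; adjusted p = 0.00289), and its second probe gave 3.15. Markers of fibroblasts rose beside it, 8 of 8 with a median of 3.59, and their part in the level of F3 was not tested. With arrays of 1 mouse only, the rise of 1.89 no longer passed (adjusted p = 0.0573).

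The contact and intrinsic factors fell as a group, 5 of 5 of those that hepatocytes make. Factor XII (F12), which starts the contact route, stood at 6.46, 6.32 and 6.26 against −6.07, −2.89, −3.67 and −2.68, a fall of 10.17 ± 0.79 (SE; adjusted p = 9.49e-05). Its cΔex3-labelled values spread over 3.39 log2 units, with array 1 lowest. Kng1, the precursor of high-molecular-weight kininogen and bradykinin, stood at 9.31, 9.15 and 8.88 against −1.29, 1.41, 0.80 and 1.61. It fell by 8.48 ± 0.68 (SE), again with array 1 lowest. Klkb1, the plasma prekallikrein gene, fell by 7.77 ± 0.51 (SE), with cΔex3-labelled values from −2.92 to −0.93.

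Factors XI and IX were more even across the cΔex3-labelled arrays. F11 stood at 3.79, 4.39 and 3.54 against −4.46, −3.93, −4.10 and −4.38, and fell by 8.13 ± 0.26 (SE; adjusted p = 7.56e-06). F9, the gene lost in haemophilia B, stood at 4.04, 4.06 and 3.68 against −0.38, −0.11, −0.29 and −0.12. The 4 cΔex3-labelled values of F9 lay within 0.27 of each other, and the fall was 4.15 ± 0.17 (SE; adjusted p = 1.04e-05). F8, lost in haemophilia A and made largely by endothelium of liver sinusoids, stood at −0.13, −0.15 and −0.09 against −2.04, −3.74, −2.56 and −2.89. It fell by 2.68 ± 0.38 (SE; adjusted p = 0.00125). Markers of liver sinusoidal endothelium moved with it: 5 of 6 were lower, with a median of −4.95. Their summed levels were 6.11 to 6.30 against 2.53 to 3.68, the latter led by Stab1, which did not pass (3.19, 2.45, 2.95 and 1.79). Markers of continuous endothelium did not move with F8, 7 of 9 being higher and 1 lower. The part of either endothelium in the level of F8 was not tested.

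Factors X and V, whose active forms together cut prothrombin, fell by 6.10 ± 0.48 and 6.05 ± 0.31 (SE; adjusted p = 0.000103 and 1.91e-05). F10 stood at 7.64, 7.64 and 7.18 against 1.08, 2.26, 1.96 and 0.26. F5 stood at 4.51, 5.39 and 5.15 against −1.07, −1.09, −0.50 and −1.49. Prothrombin itself, F2, stood at 8.47, 8.64 and 8.25 against −3.58, −0.03, −1.0 and 0.09. It fell by 9.58 ± 0.87 (SE; adjusted p = 0.000179), and its cΔex3-labelled array 1 minus the mean of the other 3 was −3.27. For F5 the same difference was −0.04.

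Fibrinogen is built from 3 chains whose genes are neighbours, and these fell together. Fga, the α chain, stood at 7.07, 5.86 and 5.99 against −5.12, −3.22, −3.34 and −0.86. Fgb, the β chain, stood at 9.17, 9.13 and 8.52 against −2.82, 0.78, 0.22 and 1.14. Fgg, the γ chain, stood at 9.56, 9.35 and 8.86 against −1.86, 0.98, 0.46 and 1.31. All 3 were lowest on cΔex3-labelled array 1 and highest on array 4, and their falls of 9.44 ± 0.93, 9.11 ± 0.93 and 9.03 ± 0.74 (SE) differed by less than their errors.

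The 2 subunits of factor XIII, which crosslinks fibrin, went opposite ways. F13b, the carrier subunit made by hepatocytes, stood at 4.32, 4.47 and 4.10 against −7.03, −5.49, −6.46 and −5.15, with 3 of the 4 cΔex3-labelled arrays above background, and fell by 10.33 ± 0.46 (SE; adjusted p = 1.25e-05). F13a1, the catalytic subunit made by macrophages, megakaryocytes and some stromal cells, stood at −2.42, −3.20 and −1.94 against 4.34, 3.95, 4.26 and 3.37. The groups did not overlap, and the rise was 6.50 ± 0.37 (SE; adjusted p = 2.72e-05). Its second probe was above background on 0 of 3 control-labelled and 4 of 4 cΔex3-labelled arrays. Of 12 tissue macrophage markers 2 were higher, 1 was lower and 9 did not pass, with a median of 0.19 and summed levels of 6.82 to 7.33 against 6.18 to 7.51. Among markers of megakaryocytes and platelets, Pf4, a platelet chemokine that macrophages can also make, rose by 3.95 and Gp1bb fell by 0.67, and 4 of 6 did not pass. The part of these cells in the rise of F13a1 was not tested.

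Vtn and the hepatocyte-made factors that limit clotting or act in clot breakdown, in either direction, fell, 4 of 4. Plg, the plasminogen gene, stood at 7.48, 7.89 and 7.11 against −4.92, −1.68, −2.32 and −1.34, and fell by 10.06 ± 0.84 (SE). Proc, which encodes the anticoagulant protein C, fell by 7.77 ± 0.62 (SE), and Cpb2, whose product slows fibrin breakdown, by 9.05 ± 0.27 (SE). Vtn, which encodes vitronectin, an adhesion protein of plasma and matrix, stood at 8.06, 8.39 and 7.75 against 1.06, 1.11, 0.94 and 0.63, a fall of 7.13 ± 0.22 (SE; adjusted p = 7.38e-06). Protein S (Pros1), the cofactor of protein C that endothelium and other cells also make, stood at 2.86, 2.44 and 2.50 against 1.88, 2.07, 2.19 and 0.76. These arrays did not overlap, but the difference of −0.87 ± 0.37 (SE; adjusted p = 0.0827) did not pass. It passed without cΔex3-labelled array 4, at −0.55 (adjusted p = 0.0428), and was 0.23 with no scaling between arrays (adjusted p = 0.506).

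The lectin route of complement showed some of the largest falls. Mannose-binding lectins bind sugars on microbes; Mbl1 stood at 3.56, 3.59 and 3.36 on the control-labelled arrays with 1 of 4 cΔex3-labelled arrays above background, with a fitted fall of 10.52 ± 0.83 (SE). Mbl2 stood at 9.02, 8.14 and 8.25 against −4.37, −0.29, −0.78 and 0.49, and fell by 9.71 ± 1.1 (SE; adjusted p = 0.000474). Of the proteases that act with the lectins, Masp2 fell by 8.30 ± 0.50 (SE), and by 6.27 to 8.30 over 3 probes. Masp1, made by hepatocytes and by stromal cells, stood at 0.28, 0.22 and −1.07 against −6.02, −6.42, −6.62 and −5.46, with 2 of 4 cΔex3-labelled arrays above background, and fell by 5.94 ± 0.43 (SE; adjusted p = 6.91e-05).

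Of the terminal complex, which forms the membrane pore, the 6 genes that hepatocytes mainly make were lower, 6 of 6, whereas C7, listed with the other complement genes, rose by 2.84 (adjusted p = 0.0023). Hc, which encodes C5, stood at 8.32, 8.27 and 8.04 against −2.46, −0.48, −1.51 and −0.69, and fell by 9.49 ± 0.47 (SE; adjusted p = 1.8e-05). The 3 genes of C8 fell by 10.45 (C8a), 10.04 (C8b) and 7.26 (C8g), the last by 5.46 with its other probe. C9 stood at 2.36, 2.73 and 1.86 on the control-labelled arrays and was not well above background on any cΔex3-labelled array. It was thus at least about 450-fold lower there (limma, adjusted p of the fitted difference 2.52e-05). This bound sets the control mean against the dimmest signal that each cΔex3-labelled array could tell from background. Where C9 itself read higher than that signal, as on array 4 (−6.99 beside −7.09), its reading was used. C6 stood apart: it read 3.32, 3.39 and 3.27 against 1.56, −2.99, −0.95 and −0.83, with array 1 the highest rather than the lowest. It fell by 4.13 ± 0.94 (SE; adjusted p = 0.00919), by 4.86 within slide row 2 (adjusted p = 0.0858) and by 2.99 with arrays of 1 mouse only (adjusted p = 0.0697).

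Of the hepatocyte-made complement regulators, 1 was lower and 1 did not pass, and both varied between the cΔex3-labelled arrays. Cfi, the protease that inactivates C3b and C4b, stood at 8.22, 8.19 and 7.87 against 1.86, 2.70, −1.02 and 0.76, and fell by 7.02 ± 0.82 (SE; adjusted p = 0.000533). C4bp, the plasma cofactor that binds C4b, stood at 7.59, 7.47 and 7.56 against −3.14, 1.06, 3.66 and 7.11. The groups did not overlap, although cΔex3-labelled array 4 came close to the control-labelled arrays, and the difference of −5.37 ± 2.16 (SE; 95% interval −10.49 to −0.25) did not pass (adjusted p = 0.073). It passed without array 4, at −7.01 (adjusted p = 0.0107), and ranged from −10.67 to −3.60 over 23 alternatives.

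The order of the cΔex3-labelled arrays for C4bp was that of genes of the epididymis, the duct that matures sperm. Lcn5, an epididymal lipocalin gene, read −9.19, 3.64, 6.06 and 7.92 on those 4 arrays, Adam7 −0.54, 2.48, 5.06 and 7.48, and Rnase9 −9.30, −1.54, 1.01 and 6.07. Lcn5 and Rnase9 were above background on 3 of these 4 arrays, not on array 1. Neither passed between the groups (limma, adjusted p = 0.0826 and 0.115). Summed over 5 epididymal genes, listed after their values had been seen, the level was −0.20, 4.31, 6.81 and 9.06, and −3.92 to −3.40 on the control-labelled arrays, where 2 of the 5 were above background. Mesothelial genes, listed in the same way, were higher for 5 of 5, with a median of 6.30 and summed levels on the 4 arrays of 4.16, 5.02, 5.19 and 3.26, another order than that of C4bp. Whether C4bp signal came with these transcripts was not tested.

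**Figure D2:**
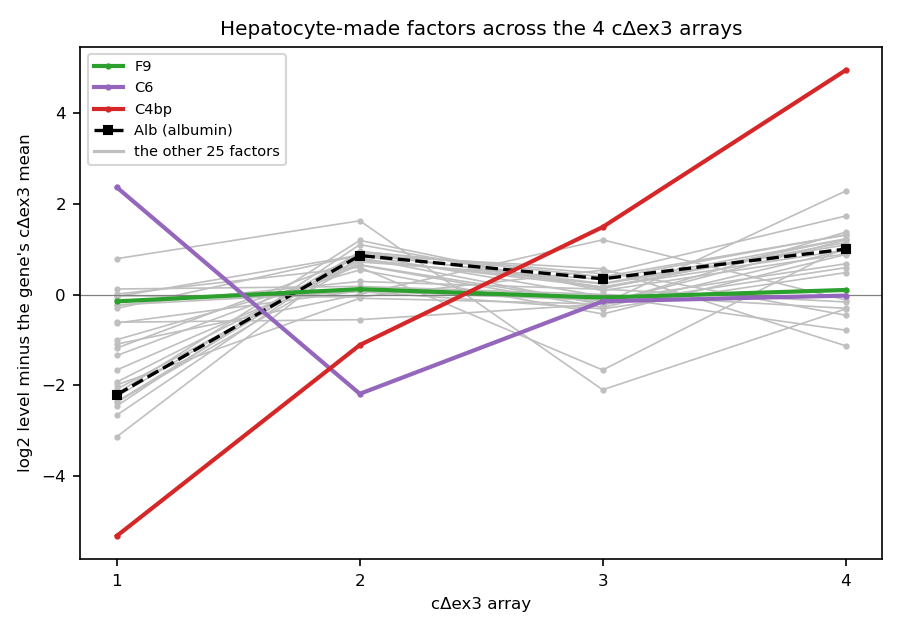
Level of each hepatocyte-made factor on the 4 cΔex3-labelled arrays (horizontal axis) minus its own mean over them (vertical axis, log2); lines join the values of 1 gene and the arrays have no order. Most factors and Alb (black) are lowest on array 1, F9 (green) is flat, C6 (purple) is highest on array 1, and C4bp (red) runs from −3.14 to 7.11 before its mean is taken off.

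Among themselves, the hepatocyte-made factors shared a pattern over the cΔex3-labelled arrays. Of 28, 20 were lowest on array 1 and 17 highest on array 4, as Alb was. On array 1, 12 were at least 4-fold below the mean of the other 3 arrays, with a median over all 28 of −1.51, beside −2.94 for Alb. Mbl2 (−4.17), Fgb (−3.53), F2 (−3.27) and Plg (−3.14) were among them, and C4bp was −7.08. Mbl1 is counted there too, and C9 among the 20, although neither was above background on array 1, so that their order among the arrays is not known. The other side held F9, F11, F5, Cpb2 and Vtn, whose 4 cΔex3-labelled values lay within 1 log2 unit, and Proc, Vtn, C6 and Cfi, which were higher on array 1 than the mean of the others. The spread between the control-labelled arrays was small beside this, with a median SD over the 28 of 0.28 (n = 3) against 1.22 (n = 4).

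Promoters of these factors are shown because the genes moved together and because liver transcription factors of the HNF1 and C/EBP families are known to act at several of them. RefSeq sequence on GRCm38.p6 was held for 33 of the 42 members, 24 of them hepatocyte-made, each as 250 bases before and 50 after the start site. The palindromic HNF1 motif GTTAATNATTAAC, searched on both strands with up to 2 mismatches, was in 6 of the 24 (C4bp, F13b, Hc, F2, Fga and Fgb), in 0 of the 9 others and in 1.40% of 27025 promoters. The C/EBP motif TTGCNNAA was in 7 of 24, 2 of 9 and 10.8% of all. Both motifs were found in Fga and Fgb, and neither in Fgg. Sequences run 5′ to 3′ in the gene's sense and cover the 150 bases before the start site, and capitals mark HNF1 and C/EBP matches. Fga, Fgb and Fgg are the 3 fibrinogen chains, from chr3:83026003-83026152 (plus strand), chr3:83049864-83050013 (minus strand) and chr3:83007574-83007723 (plus strand). Hc and F13b, both with an HNF1 match, fell by 9.49 and 10.33 and are from chr2:35061413-35061562 (minus strand) and chr1:139501557-139501706 (plus strand). Mbl1 and C8a, whose promoters were searched and held no such match, fell by 10.52 and 10.45. C4bp, the 1 hepatocyte-made factor that did not pass, is from chr1:130661619-130661768 (minus strand), and F9, flat over the cΔex3-labelled arrays, from chrX:59999314-59999463 (plus strand). C3, made in both settings, is from chr17:57228137-57228286 (minus strand).
Fga: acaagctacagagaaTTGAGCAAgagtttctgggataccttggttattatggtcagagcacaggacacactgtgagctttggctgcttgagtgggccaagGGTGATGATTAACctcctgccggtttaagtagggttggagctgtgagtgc
Fgb: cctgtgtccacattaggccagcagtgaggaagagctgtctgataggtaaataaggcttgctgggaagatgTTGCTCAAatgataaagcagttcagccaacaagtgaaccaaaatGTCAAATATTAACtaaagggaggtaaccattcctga
Fgg: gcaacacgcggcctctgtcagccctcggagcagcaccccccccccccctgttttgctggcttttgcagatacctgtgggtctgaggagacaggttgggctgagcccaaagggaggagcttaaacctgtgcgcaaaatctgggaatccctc
Hc: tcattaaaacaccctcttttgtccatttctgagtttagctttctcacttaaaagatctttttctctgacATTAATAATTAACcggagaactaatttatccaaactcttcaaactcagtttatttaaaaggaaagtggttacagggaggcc
F13b: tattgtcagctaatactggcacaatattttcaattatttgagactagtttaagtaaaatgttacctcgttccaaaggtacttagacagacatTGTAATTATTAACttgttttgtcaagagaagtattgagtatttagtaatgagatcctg
C4bp: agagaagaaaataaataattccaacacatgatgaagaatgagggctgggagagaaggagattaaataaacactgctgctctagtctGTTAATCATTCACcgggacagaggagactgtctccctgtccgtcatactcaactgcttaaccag
F9: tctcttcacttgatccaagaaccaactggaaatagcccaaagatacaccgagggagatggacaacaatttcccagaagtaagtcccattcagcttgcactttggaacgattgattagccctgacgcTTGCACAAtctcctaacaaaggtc
C3: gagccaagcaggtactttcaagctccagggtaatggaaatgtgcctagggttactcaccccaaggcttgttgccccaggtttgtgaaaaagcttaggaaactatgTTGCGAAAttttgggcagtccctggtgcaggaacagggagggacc

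The HNF1 match began 50 bases before the start site in Fga, 36 in Fgb, 81 in Hc, 58 in F13b and 64 in C4bp. The C/EBP match began 135 bases before it in Fga, 80 in Fgb, 24 in F9 and 45 in C3. Of the other motifs searched on both strands, the HNF1 half-site GTTAAT, which lies within the long motif, was in 9 of 24, 2 of 9 and 7.22% of all promoters. HNF4A's CAAAGTCCA, with 1 mismatch allowed, was in 3 of 24 (C4bp, C9 and F9), 0 of 9 and 8.54%, and TATAAA was in 3 of 24, 2 of 9 and 14.2%. The macrophage factor PU.1's GAGGAAGT was in 0 of 24, 1 of 9 (C1qc) and 3.30%. These matches describe letters in this window and do not show binding.

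Factors made mainly or also outside hepatocytes did not move as one. Of 14, 2 were called higher (F3 and F13a1), 6 lower (F8, C1ra, C4b, Masp1, C3 and Cfb) and 6 did not pass, with a median of −0.72. Over all genes tested 24.0% were called higher and 29.0% lower, so calls in both directions are not particular to these 14. No scaling between arrays, which moves the median of all genes tested from −0.08 to 1.02, gave 5 higher calls, the 3 C1q genes among them, so that small differences in this group are read only relative to the other genes.

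**Figure D3:**
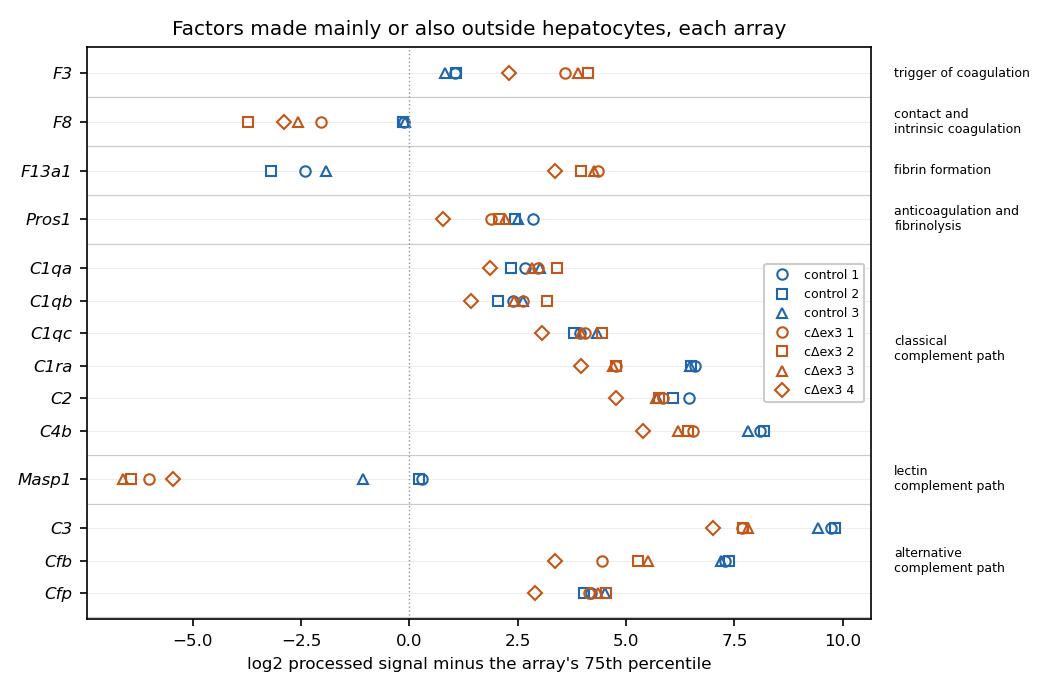
Level of each of the 14 factors made mainly or also outside hepatocytes on each array (horizontal axis, log2 processed signal minus the array's 75th percentile), with genes on the vertical axis grouped by role; blue symbols are the 3 control-labelled and orange symbols the 4 cΔex3-labelled arrays. F13a1 and F3 lie to the right in orange, the 3 C1q genes and Cfp overlap, and Masp1 cleared background on 2 of the 4 orange arrays. The lowest orange array is array 4 for 12 of 14, as it is for the medians of tissue macrophage, adipocyte and fibroblast markers.

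The 3 chains of C1q, the recognition part of the classical route and a product of macrophages, did not pass the threshold. C1qa stood at 2.66, 2.34 and 3.01 against 2.98, 3.41, 2.84 and 1.85, a difference of 0.10 (95% interval −0.81 to 1.00; adjusted p = 0.849). C1qb stood at 2.39, 2.03 and 2.63 against 2.61, 3.18, 2.41 and 1.43, a difference of 0.06 (−0.91 to 1.02; adjusted p = 0.918). C1qc stood at 3.94, 3.80 and 4.32 against 4.06, 4.43, 3.95 and 3.06, a difference of −0.15 (−0.95 to 0.66; adjusted p = 0.741). All 3 were highest on cΔex3-labelled array 2 and lowest on array 4, and each changed sign under some alternatives. With no scaling between arrays all 3 were called higher, at 1.20, 1.16 and 0.96 (adjusted p = 0.0141, 0.0185 and 0.0217), beside a median of 1.02 over all genes tested. The intervals leave room for about a 2-fold change either way. Of the 12 tissue macrophage markers 9 did not pass either, among them Csf1r at −0.23, Adgre1 at −0.19 and Cd68 at 0.80, while Lyz2 and Cx3cr1 rose by 1.51 and 1.55 and Timd4 fell by 1.53. In contrast, 5 of 6 markers of Kupffer cells, the macrophages of the liver, were lower, with a median of −4.31. Timd4 is in both marker lists. Clec4f, a lectin receptor of Kupffer cells, fell by 10.88, with 2 of 4 cΔex3-labelled arrays above background. Summed Kupffer marker levels were 7.20 to 7.94 against 3.34 to 5.33, the latter led by Nr1h3, which did not pass (4.38, 4.99, 4.99 and 3.10).

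The proteases and substrates that follow C1q were lower in part. C1ra, a protease of the C1 complex, stood at 6.60, 6.51 and 6.48 against 4.78, 4.77, 4.71 and 3.95, and fell by 1.97 ± 0.24 (SE; adjusted p = 0.000683). C4b, which encodes a substrate of active C1s, stood at 8.10, 8.18 and 7.82 against 6.54, 6.43, 6.20 and 5.38, and fell by 1.89 ± 0.30 (SE; adjusted p = 0.00212). The call of C4b was lost with the deposited series values, at −0.80 (adjusted p = 0.052). C2, which joins C4b in the convertase, stood at 6.45, 6.09 and 5.71 against 5.86, 5.75, 5.69 and 4.77; the groups overlapped, and the difference of −0.56 ± 0.32 (SE; adjusted p = 0.18) did not pass.

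C3, where all routes meet, stood above the 75th percentile on all 7 arrays and was lower on the cΔex3-labelled ones. It stood at 9.72, 9.82 and 9.44 against 7.67, 7.70, 7.80 and 7.0, and fell by 2.12 ± 0.24 (SE; adjusted p = 0.000481), by 2.59 with its other probe. Cfb, which pairs with C3b in the alternative route, stood at 7.28, 7.37 and 7.18 against 4.45, 5.27, 5.51 and 3.36, and fell by 2.63 ± 0.51 (SE; adjusted p = 0.00454). Properdin (Cfp), which stabilises that convertase and comes from leukocytes, stood at 4.18, 4.03 and 4.51 against 4.15, 4.55, 4.36 and 2.90. The groups overlapped, and Cfp differed by −0.25 (95% interval −1.21 to 0.72; adjusted p = 0.632). Of 5 neutrophil markers 0 were higher and 1 was lower, and of 4 T cell markers 3 were higher and 1 was lower. Since hepatocytes also make C3, Cfb, C4b and C1ra, their part in these falls was not tested either.

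**Figure D4:**
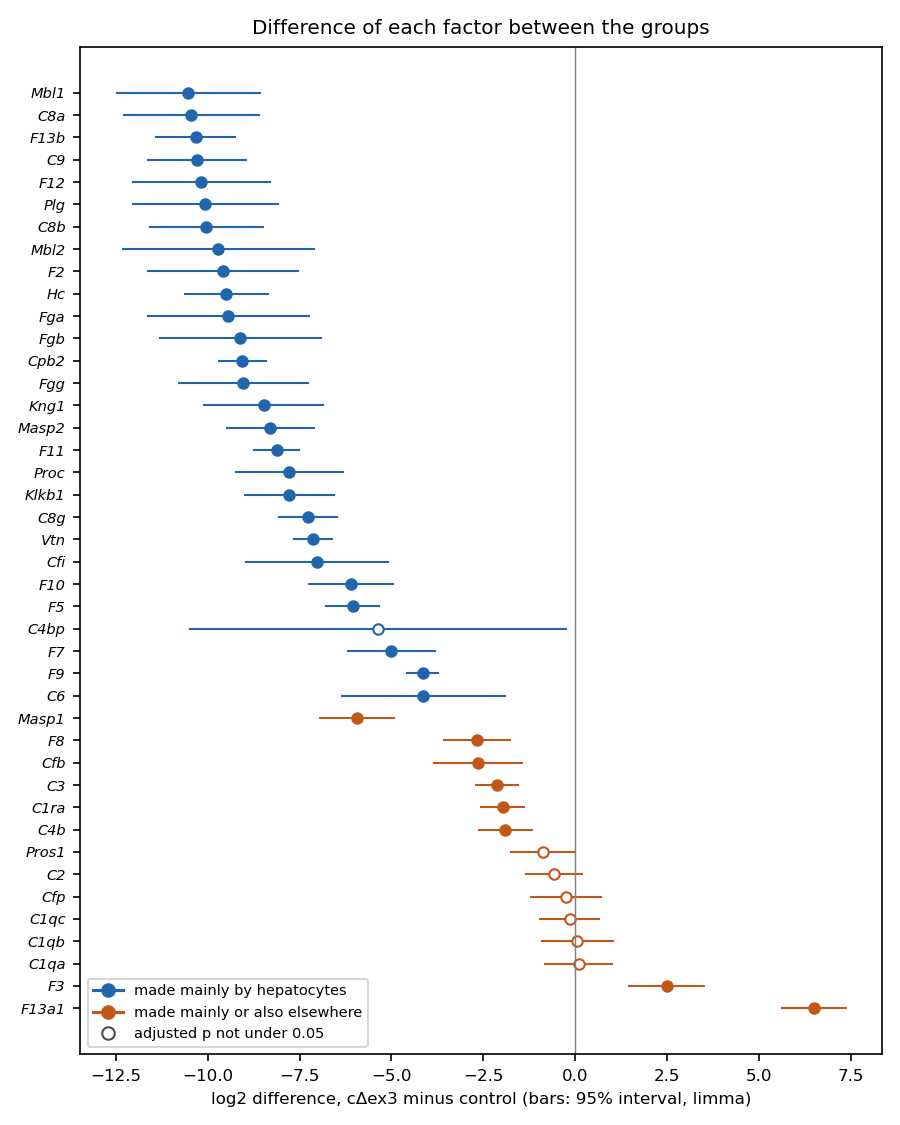
Difference of each of the 42 factors (horizontal axis, log2, cΔex3-labelled minus control-labelled) with its 95% interval from limma; blue are the 28 hepatocyte-made factors, orange the 14 made mainly or also elsewhere, and open circles have an adjusted p of 0.05 or more. Blue values run from −10.52 (Mbl1) to −4.13 (C6), orange values from −5.94 (Masp1) to 6.50 (F13a1).

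Other genes of clotting and fibrinolysis moved in both directions. Of 26 tested, 8 were higher, 16 lower and 2 did not pass, with a median of −1.63. Over all genes tested 24.0% were called higher and 29.0% lower. Hepatocyte-made inhibitors and plasma proteins fell: Serpina10, the protein Z-dependent inhibitor, by 8.70, Hrg, histidine-rich glycoprotein, by 8.89, Proz, protein Z, by 8.69 and Serpind1, heparin cofactor II, by 10.23. Genes of vessel walls and stromal cells were among those that rose, chosen here after their values were seen: Plat and Plau, the tissue and urokinase plasminogen activators, by 5.81 and 4.28, thrombomodulin (Thbd) by 2.87 and von Willebrand factor (Vwf) by 2.94. Plat was above background on 2 of 3 control-labelled arrays. In the same list Tfpi2 and F2r fell by 4.21 and 1.77, and Tfpi and Tgm2, each at 0.45, did not pass. Of the genes needed inside the cell to make clotting factors, also chosen after their values were seen, Vkorc1 of the vitamin K cycle fell by 2.21 and Lman1, a cargo receptor for factors V and VIII, by 2.44.

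Of 25 other complement genes 24 were tested, and 7 were higher, 11 lower and 6 did not pass, with a median of −0.55. These counts stand beside 24.0% higher and 29.0% lower over all genes tested. C1rl, related to the C1 proteases, fell by 3.06 and the collectins Colec11 and Colec10 by 3.91 and 11.04, the latter above background on 2 of 4 cΔex3-labelled arrays. Cfd, factor D of the alternative route and a product of adipocytes, stood at 0.62, 1.93 and 4.69 against 8.36, 8.62, 8.27 and 7.99, and rose by 5.90 (adjusted p = 0.00146). Adipocyte markers rose with it, 8 of 8, with a median of 6.11, and their part in the level of Cfd was not tested. The C5a receptor gene C5ar1 rose by 3.06, and Vsig4, a C3b receptor of resident macrophages and a listed Kupffer marker, fell by 4.91.

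**Figure D5:**
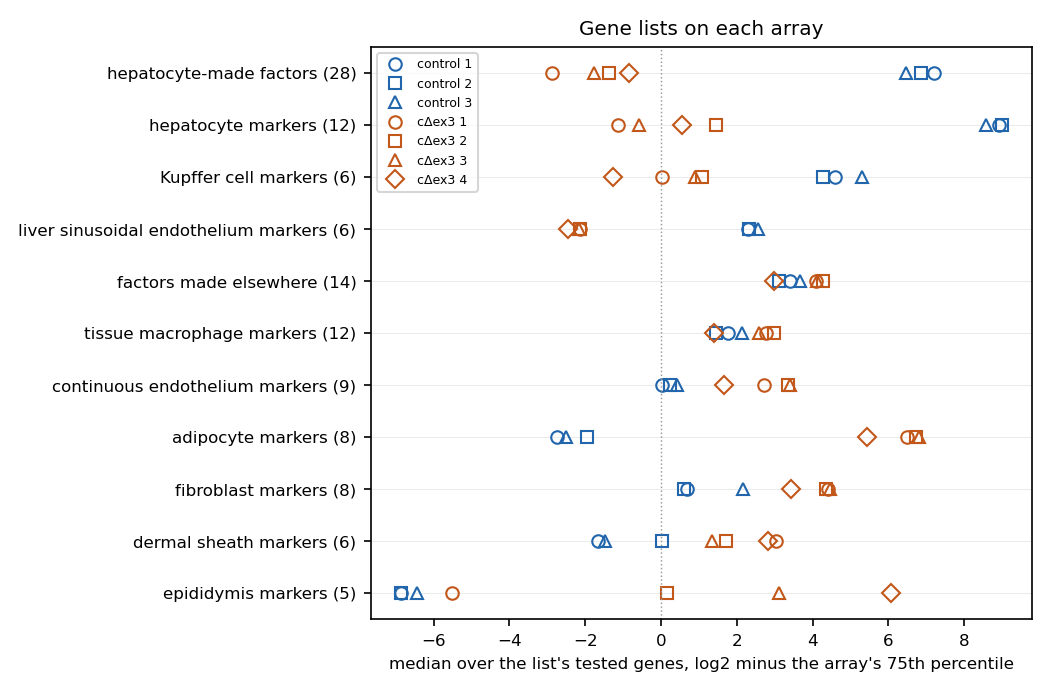
Median level of each gene list on each array (horizontal axis, log2 processed signal minus the array's 75th percentile), with the lists on the vertical axis and the number of genes in brackets; blue symbols are the 3 control-labelled and orange the 4 cΔex3-labelled arrays. Hepatocyte-made factors move with hepatocyte, Kupffer and liver sinusoidal markers. The medians of factors made elsewhere and of tissue macrophage markers overlap between the groups. Of the 14 factors made elsewhere, 9 do not overlap when taken singly, beside 10586 of all 18030 genes tested. Medians of adipocyte, fibroblast and epididymis markers lie to the right in orange.

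Several members were read by more than 1 probe, and their probes gave the same sign for all 11 such members. Slide position was the batch that could be examined: by the file headers row 1 held control-labelled arrays 1 and 2 and cΔex3-labelled array 1, and row 2 the other 4 arrays. Within row 1 all 28 hepatocyte-made factors were called lower, and within row 2, where 1 control-labelled array stood against 3, 22 were, without F7, F10, Proc, C6, Cfi and C4bp. Of the factors made elsewhere, F13a1 and Masp1 kept their call within row 2. F3 (2.62), F8 (−2.97), C1ra (−2.0), C4b (−1.82), C3 (−1.94) and Cfb (−2.47) lost it there, with differences close to those over all arrays. With slide row as a block the counts were 28 lower among the hepatocyte-made factors and 6 lower and 2 higher among the others. The headers and the file names gave the same slide position for 3 of 7 arrays and the same row for 5 of 7. By the file names each row held 1 group only, so that slide row and group cannot then be told apart.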

How the data were processed

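Scans were quantified in Agilent Feature Extraction 10.7.1.1, per the file headers, with 1 colour. Of the deposited intensity columns the processed signal was used, background-subtracted and spatially detrended per the file headers and not normalised between arrays. Values are log2 of it minus each array's 75th percentile over non-control spots. The authors' deposited series table of log2 values, whose making is not given in the sources used here, and raw signals with local background served as alternatives, and the deposited flags (other values) gave background and outlier calls. Outlier spots were left out and spots of 1 probe averaged, giving 55681 probes. An accession matched to a RefSeq table on GRCm38.p6 named 28026 of them, and 27655 were not. The array's own build differs, so no coordinates come from the files. Testing needed a probe to be well above background on 3 or more of 7 arrays, and the probe with the highest mean stood for its gene.

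Differences were fitted without covariates in limma 3.58.1 (R 4.3.3; lmFit and eBayes, two-sided). P-values were adjusted by Benjamini-Hochberg over 18030 genes, at a threshold of 0.05. All adjusted p-values come from this fit or its alternatives. The fit was tested on simulated data in which both groups of a gene shared an SD. Such data do not cover the unequal spread of the groups described above. A gene not above background in a group has only a bound there. Members and lists were chosen with earlier results of these data known, and the epididymis and mesothelium lists after their values. All members are accounted for, and of each other list of plasma genes the 4 genes with the smallest p are named, except 1 that is not reported here. Same-numbered arrays of the groups did not deviate together (correlations of −0.01, −0.00 and 0.02). With so few arrays this cannot exclude that samples were paired, and the main fit used no pairing. The number of arrays limits the precision. Alternatives were other scalings, filters and probe rules, each array left out, slide rows and a block.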

Additional observations from a re-analysis of the deposited data

Results flagged for a closer look

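Of the members, 3 had 1 cΔex3-labelled array far from the other 3 of its group, judged by the gap to the nearest value as a share of the group's range. On array 4 the classical-route protease gene C1ra read 3.95 where the nearest array read 4.71, C2 read 4.77 with the nearest at 5.69, and C3 read 7.0 with the nearest at 7.67. The same array was the lowest of its group for 12 of the 14 factors made mainly or also outside hepatocytes and the highest for 17 of the 28 that hepatocytes make. Medians of the tissue macrophage, adipocyte and fibroblast markers were also lowest on it (1.41, 5.44 and 3.44), and those of the hepatocyte and dermal sheath markers were not. How often it was lowest or highest over all genes tested was not counted. By chance about 1 in 20 groups is picked out by such a gap, and 42 members were examined. Without array 4, C1ra and C3 stayed lower and past the threshold, and C2 did not pass.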

How the results depend on the processing

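Under 23 alternatives, 24 of the 42 members kept their direction and their side of the threshold in each that could be run. For C9, F13b, Mbl1 and Masp1 these were 22, since the filter for probes above background on all 7 arrays leaves them out. In some alternatives 11 members lost their call, 4 gained one with their sign kept and 6 changed sign, a few of them counted more than once. C1qc, which with no scaling both changed sign and gained a call, is counted by its sign only. The count of hepatocyte-made factors called lower ranged from 22 to 28, and 0 were called higher in any. Within slide row 2, with 1 control-labelled array assumed to vary like the others, 1240 genes were called and, of the factors made elsewhere, 1 higher and 1 lower; the 11 members that lost their call there were F3, F7, F8, F10, Proc, Cfi, C6, C1ra, C4b, C3 and Cfb, each with its direction kept. With arrays of 1 mouse only, 1 factor made elsewhere was called higher, and with no scaling 5. No scaling made 86.3% of all calls higher, against 45.3% with the scaling used and 42.3% to 54.5% with the other alternatives, by raising the median difference of all genes to 1.02; the other scalings put it between −0.08 and 0.13. Slide row as a block was chosen after seeing the data. With a replicate block 4494 genes were higher and 4980 lower, and C4bp passed, at −7.01, as it did with array quality weights (−6.26), slide row as a block (−6.94) and within slide row 1 (−10.67).

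Signs changed only for members that did not pass. C1qa was −0.089 with arrays of 1 mouse only and −0.32 within slide row 2, and C1qb −0.19 and −0.29. C1qc, C2 and Cfp were 0.96, 0.54 and 0.86 with no scaling, 0.41, 0.29 and 0.34 with quantile normalisation, 0.42, 0.40 and 0.38 with normexp before it, and 0.41, 0.40 and 0.37 in the deposited series values. C1qc and Cfp were 0.082 and 0.051 with array quality weights, 0.13 and 0.11 with the replicate block and 0.19 and 0.045 within slide row 1, and C1qc was 0.022 with the percentile over probes above background on all arrays. Pros1 was 0.23 with no scaling. With 1 array left out at a time, C1qa ranged from −0.12 to 0.40, C1qb from −0.20 to 0.38, C1qc from −0.33 to 0.13 and Cfp from −0.43 to 0.11. The cause of these changes was not tested.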
